A study of Mus musculus with 4 samples.

Results

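Msh4, Msh5, Mlh3, Rnf212, Hfm1, Tex11, Cntd1 and Ccnb1ip1 are mouse genes whose products choose crossover sites or act on them during meiosis. These 8 crossover genes were followed over the germ cells of a Znhit1 knockout testis at postnatal day 35. The genes were taken by symbol from the count matrix of that library, and all 8 of 8 were found among the 32285 genes listed. The series held 4 droplet single-cell libraries of testis cells, 1 each from control and Znhit1 knockout animals at postnatal days 16 and 35, made to examine what loss of ZNHIT1 does in germ cells. The protein belongs to the SRCAP remodelling complex, which exchanges canonical H2A for its variant H2A.Z in nucleosomes. Counts of the day 35 knockout library are described here, and those of the remaining 3 were not analysed here, so nothing below compares knockout with control. The sources used here do not give the strain, the driver of the deletion, the number of animals or how the cells were dissociated.

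Meiotic recombination starts with programmed DNA breaks, which are repaired by strand exchange with the homologous chromosome. Most of the resulting joint molecules are resolved without exchange, and a few are stabilised and designated as crossovers. MSH4 and MSH5 form a sliding clamp on joint molecules, HFM1 is a DNA helicase and TEX11 is the mouse counterpart of yeast Zip4, encoded on the X chromosome. RNF212 and HEI10, the product of Ccnb1ip1, are RING-finger ligases of the SUMO and ubiquitin type that act antagonistically on the number of sites kept. CNTD1 is a cyclin-like protein needed for the step from many intermediate sites to few crossover sites in pachytene. MLH3 is a subunit of the endonuclease thought to resolve most crossovers.

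All 8 genes are annotated as protein coding in GENCODE on mm10. Msh4 lies at chr3:153857149-153906138, Msh5 at chr17:35028605-35046745, Mlh3 at chr12:85234520-85270599, Rnf212 at chr5:108729290-108774982 and Hfm1 at chr5:106840192-106926321. Tex11 lies at chrX:100838648-101059667 and Ccnb1ip1 at chr14:50789248-50807732, and these 7 genes are on the minus strand. Cntd1 lies at chr11:101279012-101296317 on the plus strand, where it overlaps the protein-coding genes Coa3 and Becn1 on the opposite strand. RefSeq promoter tables of GRCm38.p6 held the 250 bases before a start site for 7 of the 8 genes, all except Tex11. The windows of Msh4, Hfm1 and Ccnb1ip1 (chr14:50795729-50795978) lay inside the annotated span of the gene, before a start site within it. In 5 of these 7 genes a window held no exon annotated in GENCODE, and 4 such windows are shown, from Hfm1, Rnf212 and Msh4, which were highest in early-prophase-like clusters, and from Mlh3, which was highest in the latest cells. Each sequence is printed 5′ to 3′ on the gene's own strand, and capitals mark matches to the motifs named after them.
Hfm1, chr5:106925891-106926140, minus strand: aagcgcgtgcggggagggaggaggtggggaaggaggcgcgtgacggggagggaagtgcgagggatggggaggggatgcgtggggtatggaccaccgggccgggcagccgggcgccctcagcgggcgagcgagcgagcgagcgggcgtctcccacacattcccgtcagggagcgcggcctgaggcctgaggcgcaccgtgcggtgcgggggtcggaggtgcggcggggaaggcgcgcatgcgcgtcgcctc
Rnf212, chr5:108775028-108775277, minus strand: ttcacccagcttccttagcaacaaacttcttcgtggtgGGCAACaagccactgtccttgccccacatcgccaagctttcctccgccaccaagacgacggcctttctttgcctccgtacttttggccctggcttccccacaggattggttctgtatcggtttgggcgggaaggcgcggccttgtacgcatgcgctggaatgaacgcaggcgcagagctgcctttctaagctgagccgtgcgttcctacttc
Msh4, chr3:153904892-153905141, minus strand: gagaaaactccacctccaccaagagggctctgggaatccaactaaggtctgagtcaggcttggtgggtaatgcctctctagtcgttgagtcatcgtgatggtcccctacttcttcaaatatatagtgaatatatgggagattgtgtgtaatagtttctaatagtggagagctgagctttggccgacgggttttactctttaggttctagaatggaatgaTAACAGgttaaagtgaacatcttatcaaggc
Mlh3, chr12:85270600-85270849, minus strand: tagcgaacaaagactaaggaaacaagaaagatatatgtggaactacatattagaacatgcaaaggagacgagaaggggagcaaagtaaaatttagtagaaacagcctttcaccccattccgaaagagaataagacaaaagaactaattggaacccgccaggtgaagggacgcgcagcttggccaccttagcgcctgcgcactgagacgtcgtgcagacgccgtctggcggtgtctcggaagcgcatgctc

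The windows differed in base composition, with a GC content of 75.6% in Hfm1, 57.6% in Rnf212, 48.8% in Mlh3 and 43.6% in Msh4, against a median of 52.4% over the 32851 windows of the table. A set of 5 motifs was searched on both strands, and their matches did not overlap. The MYB motif TAACNG was found in Msh4, 31 bases before the start, and in Ccnb1ip1, 129 bases before it, and is held by 19.8% of all windows. The RFX half-site GTTGCC was found in Rnf212, 212 bases before the start on the strand opposite to the gene, and is held by 10.4% of all windows. Bases checked downstream of that start were not found in a GENCODE transcript of Rnf212, as they were for the other genes with a window. The E-box CACGTG was found in Cntd1, 187 bases before the start (6.02% of all windows), and the E2F motif TTTCCCGC in Msh5, 65 bases before it on the strand opposite to the gene (0.895% of all windows). The CRE half-site TGACGT, held by 6.47% of all windows, matched in none of the 7 genes, and the windows of Hfm1 and Mlh3 held no match to any of the 5 motifs. The Cntd1 window held an annotated exon of Coa3 as well as exons of Cntd1.

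The library held 72459160 UMIs (unique molecular identifiers, each standing for 1 captured RNA molecule) in 15306 barcodes, of which 57 to 81 were also listed in each of the other 3 libraries. After filters and removal of doublets, 7886 cells were used, with a median of 4616 UMIs, and these fell into 22 clusters. Clusters were built without the 8 genes, named from marker genes, and held 4396 germ-cell-like cells in 8 clusters, 2720 somatic-like cells and 770 cells of low UMI count that were left unnamed. Germ clusters comprised 3 spermatogonium-like clusters (1635 cells), 3 early-prophase-like clusters (2050 cells, named from markers of meiotic entry and the first stages of prophase) and 2 pachytene-like clusters (711 cells), numbered along an order of the cells inferred from the data. The first spermatogonium-like cluster was led by Gfra1, the first early-prophase-like cluster by genes such as Stra8 and Prdm9, and the third by Zfy1 and Zfy2. Pachytene-like cluster 1 scored nearly alike for pachytene (1.57) and early prophase (1.53) markers, and cluster 2 scored 2.97 for pachytene. Haemoglobin genes led spermatogonium-like cluster 3 and early-prophase-like cluster 2. Summed levels of 14 pachytene markers were between 578 and 784 CPM (UMIs of a gene per 1000000 UMIs of the same cells) in the first 5 clusters, 1586 CPM in early-prophase-like cluster 3, 4617 CPM in pachytene-like cluster 1 and 14600 CPM in cluster 2. Elongating spermatid markers summed to at most 22.0 CPM in any germ cluster. Round spermatid markers summed to 41.5 CPM in pachytene-like cluster 1 and 138 CPM in cluster 2, which was the last cluster of the order. Znhit1 had 80 UMIs in germ-cell-like cells (2.48 CPM) and 239 in somatic-like cells (15.6 CPM), and since reads come from the 3' end, they need not fall in what was deleted.

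With 1 library there is no replicate and no test, and every interval below is a 95% interval for counting error alone. Levels are CPM of the UMIs summed over the cells of a cluster or class. Median UMIs per cell differed between clusters, from 3638 in spermatogonium-like cluster 3 to 4123, 4175 and 5181 in the early-prophase-like clusters, 8109 in pachytene-like cluster 1 and 16702 in cluster 2, so a level in CPM and a number of UMIs per cell can move in opposite directions. In CPM, Mlh3 alone was highest in pachytene-like cluster 2. In UMIs per cell all of the 8 genes except Tex11 were, with Msh5 at 0.596 in early-prophase-like cluster 2 and 0.905 in pachytene-like cluster 2, and Hfm1 at 1.70 and 2.0. Whether the higher UMI number reflects more RNA per cell or deeper capture was not tested, and levels below are in CPM, relative to the other genes of the same cells, unless UMIs per cell are named. Cells of different germ clusters share that library and its free RNA, whose part in each cluster was not measured. Summed Sertoli markers were at 749 CPM in spermatogonium-like cluster 1, 1643 CPM in early-prophase-like cluster 2 and 615 CPM in pachytene-like cluster 2. As a gauge of free RNA, 15 early prophase markers had somatic-like levels of 7.75% to 12.6% of their germ-cell-like levels, with a median of 8.71%.

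All 8 genes were at least 2-fold higher in the germ-cell-like class than in the somatic-like one, where 38.4% of 18445 genes were higher and 25.7% lower by that measure. The ratio was highest for Rnf212, at 17.3 (11.7 to 26.6), and lowest for Mlh3, at 2.47 (2.17 to 2.81). Msh4, Hfm1, Tex11 and Cntd1 lay between 10.0 and 10.5, with somatic-like levels of 9.57% to 9.99% of the germ-cell-like level, within the range of the early prophase markers. The somatic-like level of Rnf212 was 5.80% of its germ-cell-like level. Msh5, Ccnb1ip1 and Mlh3 were above that range, with somatic-like levels of 16.5%, 22.8% and 40.5% of the germ-cell-like level. Their somatic-like levels were 8.54, 12.7 and 18.5 CPM.

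Along the order of germ cells the highest bins of the 8 genes were spread over most of the order. When the 4396 germ cells were divided into 20 bins of 219 or 220 cells, Tex11 was highest in bin 6, Ccnb1ip1 in bin 8, Msh5 in bin 11, Rnf212 in bin 13, Hfm1 in bin 14, Msh4 in bin 16, Cntd1 in bin 19 and Mlh3 in bin 20. Not every neighbour in this list differed beyond counting error. The interval of the highest bin was overlapped by those of bins as early as 3 and as late as 16 for Ccnb1ip1, 9 and 14 for Msh5, 9 and 16 for Rnf212, 11 and 15 for Hfm1, and 10 and 19 for Msh4. In bin 11 the interval of Msh4 (34.1 to 62.6 CPM) lay below that of its highest bin. Msh5, Rnf212, Hfm1 and Msh4 shared bins 12 to 14, and the order of their highest bins is not resolved by the counts. For Tex11 the overlapping bins ended at 9, and for Cntd1 and Mlh3 no other bin overlapped the highest one. Bins 9 to 15 were made up mostly of early-prophase-like cells, bins 16 and 17 mostly of early-prophase-like cluster 3, and bins 18 to 20 mostly of pachytene-like cells.

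**Figure D1:**
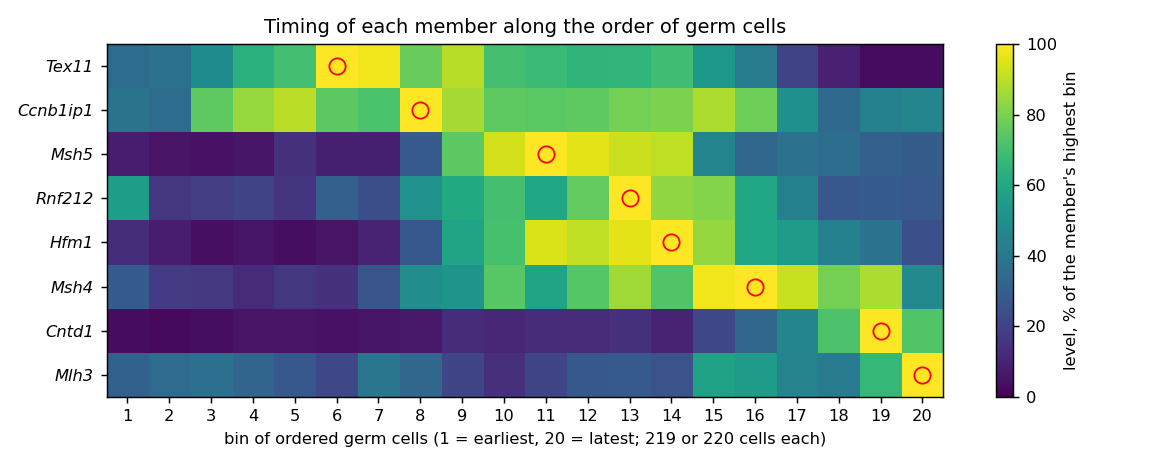
Level of each gene in 20 bins of germ cells in inferred order (x axis, 219 or 220 cells each), as percent of that gene's highest bin (colour), with the highest bin circled. Highest bins run from bin 6 for Tex11 to bin 20 for Mlh3, and the 2 genes at the bottom are bright only in the last bins.

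Levels between consecutive classes are given first as counts and then gene by gene. From spermatogonium-like to early-prophase-like cells, 5 of the 8 genes (Msh4, Msh5, Rnf212, Hfm1 and Cntd1) were at least 2-fold higher and 0 were at least 2-fold lower, where 12.6% of 15749 genes were higher and 28.8% lower by that measure. Their median log2 ratio was 1.58, against -0.24 over all genes. Between the early-prophase-like and pachytene-like classes, 2 (Mlh3 and Cntd1) were at least 2-fold higher and 4 (Msh5, Rnf212, Hfm1 and Tex11) at least 2-fold lower, where 19.6% of 14804 genes were higher and 27.1% lower. The median log2 ratio was -0.98, against -0.28 over all genes. Between the 2 pachytene-like clusters 0 were at least 2-fold higher and 1, Tex11, was at least 2-fold lower, where 18.6% of 12367 genes were higher and 11.3% lower. Without scaling, as UMIs per cell, ratios of all genes were multiplied by 0.627, 2.79 and 2.20 in these 3 steps, a shift of -0.67, 1.48 and 1.14 in log2. The counts for the 8 genes then became 4 higher, without Rnf212, and 0 lower (4.97% and 47.1% of all genes), 3 higher and 1 lower (56.4% and 5.15%), and 3 higher and 0 lower (54.9% and 1.63%). In the step to pachytene-like cells Msh5, Rnf212 and Hfm1 turned from lower to higher under that measure, at ratios of 1.25, 1.15 and 1.21, and Msh4 went from 0.837 to 2.34.

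**Figure D2:**
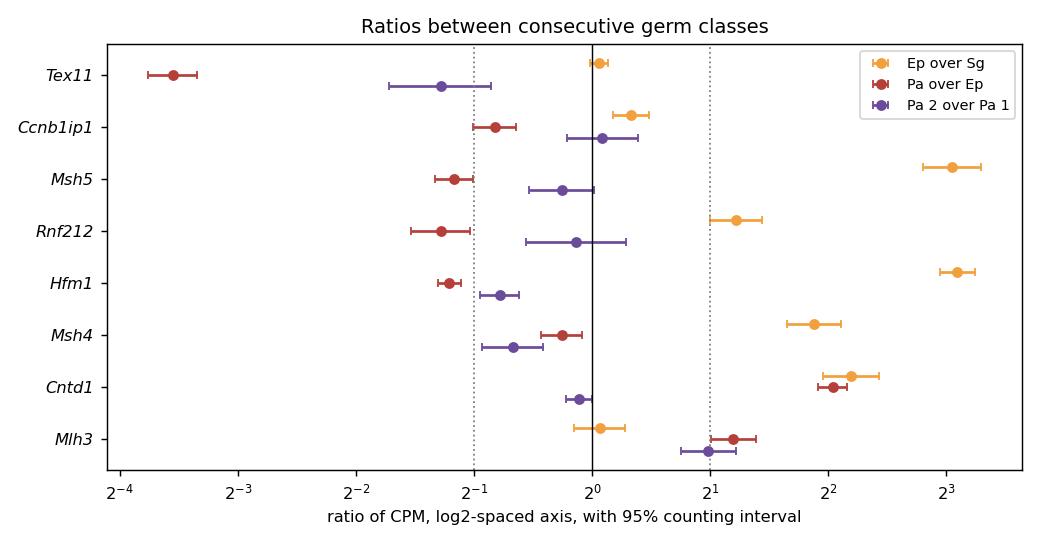
Ratio of CPM with its 95% counting interval (x axis, log2-spaced) for each gene in 3 steps, early-prophase-like over spermatogonium-like (Ep over Sg), pachytene-like over early-prophase-like (Pa over Ep) and pachytene-like cluster 2 over cluster 1. Dotted lines mark 2-fold; Tex11 lies farthest left at 0.0854 and Cntd1 farthest right among the pachytene-like over early-prophase-like ratios at 4.10, while Msh5, Rnf212 and Hfm1 lie left of 1 in CPM and would lie right of it in UMIs per cell.

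Msh4 and Msh5, which encode the partners of the clamp, both came up at the start of early prophase but not to the same extent or for the same time. Msh5 was at 10.4, 14.6 and 14.3 CPM in the 3 spermatogonium-like clusters, 121, 132 and 53.4 CPM in the early-prophase-like clusters, and 51.8 and 43.3 CPM in the pachytene-like clusters. Its level stepped up 8.41-fold (5.86 to 12.5) into early-prophase-like cluster 1 and stepped down 2.47-fold (2.06 to 2.98) between clusters 2 and 3, before any pachytene-like cell. From early-prophase-like cluster 3 to pachytene-like cluster 1 its ratio was 0.969 (0.786 to 1.20). In the bins it was at 43.1 CPM in bin 8, 113 CPM in bin 9, 137 CPM in bin 14 and 68.3 CPM in bin 15, so the high span had sharp edges on both sides.

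Msh4 had a broader course, with no step down between early-prophase-like clusters 2 and 3, where its ratio was 1.23 (1.02 to 1.47). It was at 19.6, 13.6 and 19.3 CPM in the spermatogonium-like clusters, 45.3, 64.5 and 79.1 CPM in the early-prophase-like clusters, and 66.0 and 41.4 CPM in the pachytene-like clusters. From spermatogonium-like to early-prophase-like cells it was 3.68-fold higher (3.14 to 4.31), against 8.25-fold (6.99 to 9.80) for Msh5. Between the early-prophase-like and pachytene-like classes Msh4 had a ratio of 0.837 (0.743 to 0.943), where Msh5 was 2.24-fold lower (2.01 to 2.51). In UMIs per cell these ratios were 2.34 and 1.25. The lower level of Msh4 in CPM came at the end of the order, from 70.6 CPM (60.5 to 81.9) in bin 19 to 37.8 CPM (32.5 to 43.7) in bin 20. With the cells in 40 bins, it was at 72.5 CPM (58.7 to 88.5), 55.2 CPM (45.3 to 66.6) and 25.9 CPM (20.4 to 32.5) in the last 3. As a number of UMIs, bin 19 of 20 held 174 over 220 cells and bin 20 held 184 over 219 cells. The last of 40 bins held 75 over 109 cells, against 109 over 110 cells in the bin before it. The number of Msh4 UMIs for each Msh5 UMI was 0.375 (0.307 to 0.457) in early-prophase-like cluster 1, 0.489 (0.419 to 0.568) in cluster 2, 1.48 (1.20 to 1.83) in cluster 3, 1.27 (1.07 to 1.52) in pachytene-like cluster 1 and 0.956 (0.791 to 1.16) in cluster 2. Because 3' capture can differ between genes, this ratio is read for its change along the clusters and not for its size. That change, from Msh5 toward Msh4 between early-prophase-like clusters 2 and 3, does not depend on scaling, since both counts come from the same cells.

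Hfm1, the helicase gene, was highest in early-prophase-like cluster 2 in CPM. It was at 40.7, 27.1 and 36.3 CPM in the spermatogonium-like clusters, 239.9, 376 and 237 CPM in the early-prophase-like clusters, and 164 and 95.7 CPM in the pachytene-like clusters. Its step into early prophase was 8.54-fold (7.72 to 9.47) over the classes, close to that of Msh5, with overlapping intervals. Pachytene-like cells were 2.31-fold lower (2.16 to 2.47) than early-prophase-like cells in CPM, and the ratio was 1.21 in UMIs per cell. Unlike Msh5, the decline of Hfm1 was spread over every step from early-prophase-like cluster 2 onward, with ratios of 0.630 (0.574 to 0.690), 0.695 (0.625 to 0.773) and 0.582 (0.518 to 0.653). At least 1 UMI of Hfm1 was found in 75.8% of the cells of early-prophase-like cluster 2, and in 33.2% (30.1 to 36.4) after thinning each cell to 1000 UMIs, against 6.03% and 1.25% (0.867 to 1.74) of somatic-like cells, whose median was 4160 UMIs. In the last of 40 bins it was still at 72.2 CPM (62.8 to 82.7), above its somatic-like level of 13.9 CPM.

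**Figure D3:**
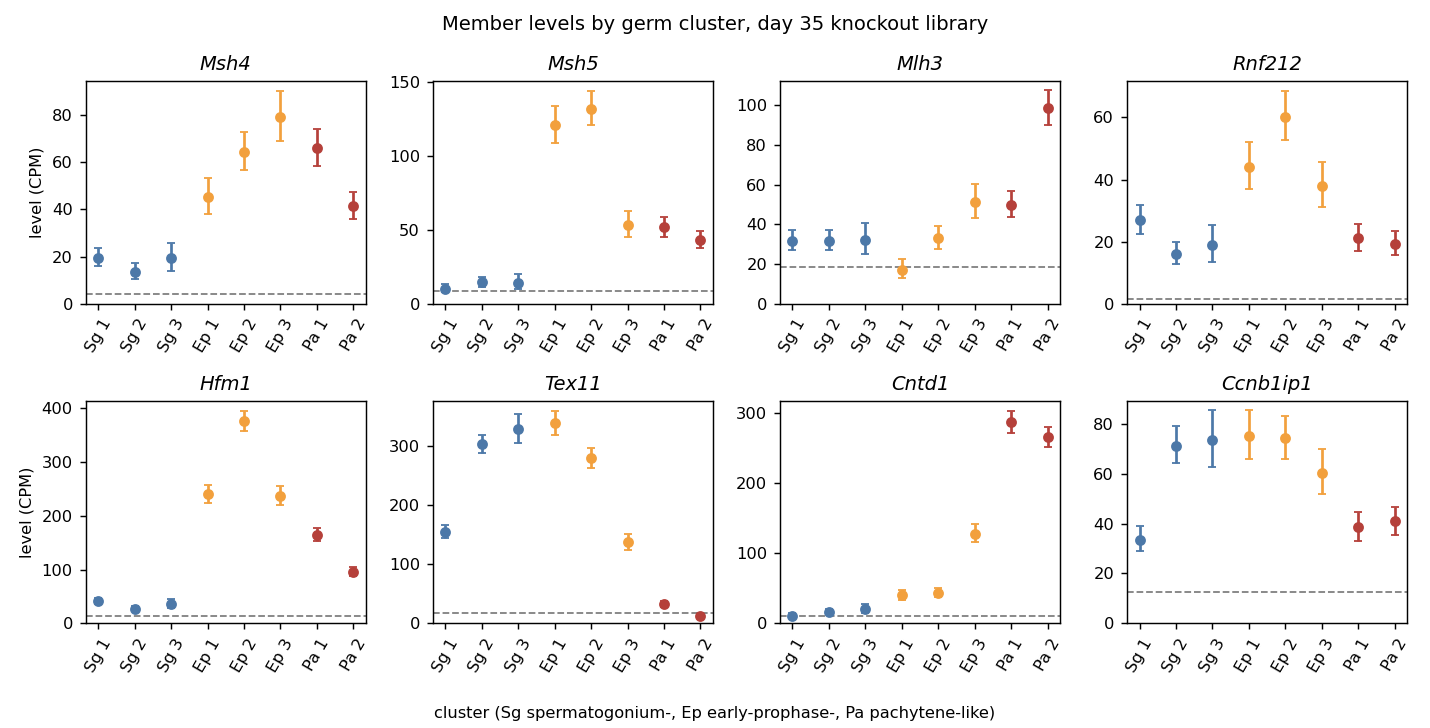
Level of each gene (y axis, CPM) in the 8 germ clusters in order, spermatogonium-like (Sg), early-prophase-like (Ep) and pachytene-like (Pa), with 95% counting intervals; the dashed line is the level in somatic-like cells. Msh5 drops between Ep 2 and Ep 3, Cntd1 and Mlh3 are highest in Pa clusters, and Tex11 ends at 13.3 CPM, under its dashed line at 17.5 CPM.

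Tex11 had the earliest highest bin of the 8 genes and the lowest final level relative to its highest, at 3.44% in bin 20. The bins that overlapped the highest of Ccnb1ip1 ran from 3 to 16, so which of Tex11 and Ccnb1ip1 was highest first is not resolved. Tex11 was at 155, 304 and 329 CPM in the spermatogonium-like clusters, 339, 279 and 137 CPM in the early-prophase-like clusters, and 32.3 and 13.3 CPM in the pachytene-like clusters. Spermatogonium-like cells as a class already had 247 CPM, and the ratio of early-prophase-like to spermatogonium-like cells was 1.04 (0.985 to 1.10), or 0.651 in UMIs per cell. Between the early-prophase-like and pachytene-like classes Tex11 was 11.7-fold lower (10.2 to 13.5), the largest ratio in either direction among the 8 genes, and it was lower by the same classes in UMIs per cell too, at a ratio of 0.239. Pachytene-like cluster 2 was 2.43-fold lower (1.81 to 3.29) than cluster 1 in CPM, with a ratio of 0.904 in UMIs per cell. Its level there did not exceed that of somatic-like cells (17.5 CPM). Thinned to 1000 UMIs, 1.19% of the cells of that cluster (0.246 to 3.44) held a Tex11 UMI, against 1.47% (1.05 to 2.0) of somatic-like cells. By these measures Tex11 in the last cluster could not be told apart from its somatic-like level. In UMIs per cell it was at 0.278 there and 0.0985 in somatic-like cells. Without thinning the shares of cells with a Tex11 UMI were 14.7% at a median of 16702 UMIs and 6.36% at a median of 4160 UMIs.

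As Tex11 is X-linked and X-linked genes are silenced as a group in pachytene, in the sex body, it was set beside the other X-linked genes. The share of UMIs from X-linked genes other than Tex11 was 2.54% in early-prophase-like cluster 1, 2.46% in cluster 2, 2.52% in cluster 3, 0.854% in pachytene-like cluster 1 and 0.734% in cluster 2. In early-prophase-like cluster 3 this share was 99.3% of its highest value, while Tex11 was at 40.5% of its own. Between early-prophase-like clusters 1 and 2 Tex11 had a ratio of 0.825 (0.757 to 0.898). Between clusters 2 and 3 its ratio was 0.491 (0.436 to 0.551), and 42 of 481 X-linked genes (8.73%) were at least 2-fold lower, where 10.8% of 11618 genes were. In that step 40 X-linked genes had a lower ratio than Tex11, and the median ratio of X-linked genes was 1.05. Between the early-prophase-like and pachytene-like classes 414 of 571 X-linked genes were lower by 2-fold or more, the median log2 ratio was -1.72, and 41 of them (7.18%) had a lower ratio than Tex11.

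**Figure D4:**
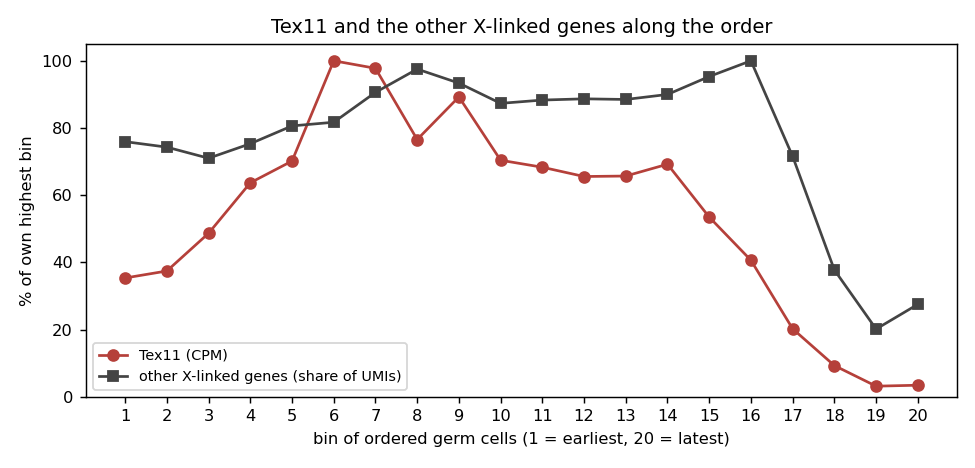
Tex11 (red circles, CPM) and all other X-linked genes together (grey squares, share of UMIs) in 20 bins of ordered germ cells (x axis), each as percent of its own highest bin (y axis). In bin 16 the X-linked share is at its highest while Tex11 is at 40.6% of its highest, and both are low in bins 18 to 20.

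The ligase genes Rnf212 and Ccnb1ip1 did not run in parallel. Rnf212 was at 26.9, 15.9 and 18.8 CPM in the spermatogonium-like clusters, 44.0, 60.2 and 37.8 CPM in the early-prophase-like clusters, and 21.1 and 19.2 CPM in the pachytene-like clusters. Ccnb1ip1 was at 33.6, 71.2 and 73.5 CPM, then 75.0, 74.1 and 60.4 CPM, then 38.5 and 40.8 CPM in the same clusters. Rnf212 was thus highest in early-prophase-like cells, 2.32-fold above spermatogonium-like cells (2.0 to 2.71) in CPM and 1.46-fold in UMIs per cell. Ccnb1ip1 differed by less than counting error from spermatogonium-like cluster 2 to early-prophase-like cluster 2, and had a ratio of 0.815 (0.672 to 0.986) from there to cluster 3. Ccnb1ip1 stepped up 2.12-fold (1.77 to 2.55) between spermatogonium-like clusters 1 and 2, and its ratio of early-prophase-like to spermatogonium-like cells was 1.25 (1.13 to 1.39), or 0.786 in UMIs per cell.

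Both ligase genes were lower in the pachytene-like class than in the early-prophase-like one in CPM and higher in UMIs per cell. Rnf212 was 2.43-fold lower (2.05 to 2.89) and Ccnb1ip1 1.77-fold lower (1.56 to 2.01) in CPM, and their ratios in UMIs per cell were 1.15 and 1.58. Between the 2 pachytene-like clusters the intervals of both ratios in CPM held 1, with values of 0.910 (0.679 to 1.22) and 1.06 (0.863 to 1.31). The number of Rnf212 UMIs for each Ccnb1ip1 UMI, which is free of that scaling, was 0.224 (0.174 to 0.284) in spermatogonium-like cluster 2, 0.586 (0.471 to 0.728) in early-prophase-like cluster 1, 0.813 (0.683 to 0.968) in cluster 2, 0.626 (0.489 to 0.801) in cluster 3, 0.548 (0.420 to 0.710) in pachytene-like cluster 1 and 0.470 (0.367 to 0.598) in cluster 2. The value of early-prophase-like cluster 2 was above that of spermatogonium-like cluster 2 and of pachytene-like cluster 2, and its interval overlapped those of early-prophase-like clusters 1 and 3 and of pachytene-like cluster 1. In spermatogonium-like cluster 1 the ratio was 0.80 (0.636 to 1.01).

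Rnf212 had an earlier high point in the first cells of the order. In bin 1, made up of cells of spermatogonium-like cluster 1 alone, Rnf212 was at 39.4 CPM (32.5 to 47.2), against 11.1 CPM (7.29 to 16.1) in bin 2 and 12.7 CPM (7.65 to 19.9) in bin 3. Hfm1 had 50.9 CPM (43.1 to 59.7) in bin 1 and 15.4 CPM (9.75 to 23.1) in bin 3, intervals that do not overlap. Msh4 had 23.4 CPM (18.2 to 29.6) and 13.4 CPM (8.17 to 20.7) in these bins, and Msh5 12.2 CPM (8.56 to 16.9) and 7.36 CPM (3.67 to 13.2), with overlapping intervals in both genes. The median depth was 11945 UMIs per cell in bin 1, 10442 in bin 2 and 6634 in bin 3. Its part in these values was not tested.

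Cntd1, the cyclin-like gene of the designation step, came up on entry to early prophase and again from the end of early prophase to pachytene. It was at 10.9, 16.1 and 20.2 CPM in the spermatogonium-like clusters, 40.4, 43.6 and 128 CPM in the early-prophase-like clusters, and 287 and 266 CPM in the pachytene-like clusters. Its ratio was 2.0 (1.42 to 2.89) from spermatogonium-like cluster 3 to early-prophase-like cluster 1 and 1.08 (0.852 to 1.37) from there to cluster 2. The ratio was 2.95 (2.45 to 3.55) from early-prophase-like cluster 2 to 3 and 2.24 (1.99 to 2.52) from there to pachytene-like cluster 1. Over the classes it was 4.10-fold higher (3.77 to 4.47) in the pachytene-like class than in the early-prophase-like one, and 2.15-fold against early-prophase-like cluster 3 alone. At least 1 UMI of Cntd1 was found in 93.7% of the cells of pachytene-like cluster 2, with up to 26 UMIs in 1 cell, and in 27.0% (21.6 to 32.9) after thinning to 1000 UMIs, against 5.07% and 1.29% (0.898 to 1.79) of somatic-like cells.

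Within the pachytene-like cells Cntd1 went through its highest level in CPM and was lower in the last cells. Over the last 4 of 40 bins it was at 323 CPM (290.5 to 357), 375 CPM (343 to 410), 332 CPM (307 to 358) and 203 CPM (187 to 220). The depth of those bins differed, and as a number of UMIs the last bin held 588 over 109 cells against 655 over 110 cells in the bin before it. Thinned to 1000 UMIs per cell, its highest of 20 bins was the last. Because Coa3 and Becn1 overlap Cntd1 on the other strand, and no source used here says whether the counting used strand, their levels were compared. Coa3 was at 118, 16.4, 12.8, 37.1 and 93.8 CPM in spermatogonium-like cluster 3, early-prophase-like clusters 2 and 3 and pachytene-like clusters 1 and 2. Becn1 was at 129, 159, 133, 67.1 and 105.5 CPM in the same clusters. Between early-prophase-like cluster 3 and pachytene-like cluster 1 both Coa3 and Cntd1 were higher. The part of antisense reads in the Cntd1 counts was not tested.

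Mlh3, the endonuclease gene, was the last of the 8 to reach its highest level in CPM without thinning. After thinning to 1000 UMIs per cell, Cntd1 and Mlh3 were both highest in the last bin. In UMIs per cell, all of the 8 genes except Tex11 were highest in the last pachytene-like cluster. Mlh3 was at 31.9, 31.9 and 32.3 CPM in the spermatogonium-like clusters, 17.1, 33.0 and 51.3 CPM in the early-prophase-like clusters, and 49.9 and 98.5 CPM in the pachytene-like clusters. Its course had a low point at meiotic entry, a rise over the early-prophase-like clusters and a late step. Early-prophase-like cluster 1 was 1.88-fold lower (1.30 to 2.74) than spermatogonium-like cluster 3, and at 17.1 CPM (12.8 to 22.4) it lay at the somatic-like level of 18.5 CPM. In UMIs per cell the low point was also there, at 0.0804 against 0.128 before it and 0.149 after it.

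Mlh3 first rose from its low point over the early-prophase-like clusters. Its ratio was 1.93 (1.39 to 2.70) from cluster 1 to 2 and 1.56 (1.22 to 1.98) from cluster 2 to 3. The late step of Mlh3 fell within pachytene-like cells. From early-prophase-like cluster 3 to pachytene-like cluster 1 the ratio was 0.973 (0.786 to 1.21), and from pachytene-like cluster 1 to 2 it was 1.97 (1.68 to 2.32), where Cntd1 had 0.926 (0.857 to 1.0). In UMIs per cell these last ratios were 4.34 for Mlh3 and 2.04 for Cntd1. Over the last 4 of 40 bins Mlh3 was at 56.1 CPM (43.2 to 71.7), 74.0 CPM (60.1 to 90.2), 97.3 CPM (84.0 to 112) and 99.9 CPM (88.7 to 112). Pachytene-like cells were 2.29-fold above early-prophase-like cells (2.01 to 2.62), but with pachytene-like cluster 1 alone the ratio was 1.5, and against early-prophase-like cluster 3 alone it was 1.49. Mlh3 UMIs were found in 70.6% of the cells of pachytene-like cluster 2, and in 10.7% (7.18 to 15.2) after thinning, against 9.52% and 1.80% (1.34 to 2.38) of somatic-like cells.

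Cntd1 was also set against Rnf212 in the same cells, so that depth does not enter. The number of Cntd1 UMIs for each Rnf212 UMI went from 0.724 (0.592 to 0.884) in early-prophase-like cluster 2 to 3.39 (2.74 to 4.24) in cluster 3 and 13.6 (11.02 to 17.0) in pachytene-like cluster 1.

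UMIs of several of the 8 genes in the same cell were common at full depth. A median of 3 of the 8 genes had a UMI in the cells of each early-prophase-like cluster and of pachytene-like cluster 1, and 5 in pachytene-like cluster 2. After thinning to 1000 UMIs the mean number of genes with a UMI was highest in early-prophase-like cluster 2, at 0.926, and was 0.575 in pachytene-like cluster 2, 0.243 in spermatogonium-like cluster 1 and 0.0930 in somatic-like cells.

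Other recombination genes were set beside these courses. Between the early-prophase-like and pachytene-like classes, 0 of 11 crossover partner genes were higher by 2-fold or more and 8 were lower, at a median log2 ratio of -1.57. Over all genes 19.6% were higher and 27.1% lower by that measure, with a median log2 ratio of -0.28, and these values apply to each list of this step. Shoc1, which encodes a partner of the same pathway, was at 112 and 21.6 CPM in the 2 classes. Cdk2, the kinase found at crossover sites, was at 66.9 and 29.2 CPM, and M1ap at 163 and 6.02 CPM. Rnf212b, Brip1, Pms2 and Mcm8 were also among those lower by 2-fold or more. Prr19, which encodes the binding partner of CNTD1, had 23.2 CPM in the first class and 37.8 CPM in the second, 1.63 times as much (1.38 to 1.93), where Cntd1 had 4.10.

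Among 17 genes that process joint molecules by other routes, 0 were at least 2-fold higher in the pachytene-like class than in the early-prophase-like one and 8 were lower by that much, at a median log2 ratio of -0.62. They included Eme1, Gen1, Blm, Exo1, Fancm, Pms1 and Mcm9. Mus81, the nuclease of the alternative crossover route, was at 4.53 and 3.94 CPM, with a ratio of 0.872 (0.551 to 1.37) that the depth could not place on either side of 1. Gen1, a Holliday junction resolvase gene, was at 54.7 and 8.10 CPM.

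Genes of strand exchange and of break formation were also counted. Of 13 strand exchange genes, 3 were at least 2-fold higher in pachytene-like cells (Psmc3ip, Mnd1 and Mcmdc2) and 3 at least 2-fold lower (Dmc1 and Brca2 among them), with a median log2 ratio of -0.21, so that the share each way was near that of all genes. Psmc3ip and Mnd1, whose products form the HOP2-MND1 complex that stimulates the recombinases, had ratios of 3.84 (3.64 to 4.05) and 3.55 (3.25 to 3.88), next to 4.10 for Cntd1. Mnd1 was also among the leading genes of pachytene-like cluster 1. Of 10 break formation genes 0 were higher and 7 lower by 2-fold, with a median log2 ratio of -1.88. The 7 were Gm960, Rec114, Mei4, Ankrd31, Mei1, Prdm9 and Trip13. In the earlier step, from spermatogonium-like to early-prophase-like cells, 4 of 11 crossover partners, 1 of 17 joint-molecule genes, 8 of 13 strand exchange genes and 6 of 10 break formation genes were higher by 2-fold or more, where 12.6% of all genes were. In the same order 0, 2, 0 and 1 were lower, where 28.8% of all genes were. Dmc1, Meiob and Rad51ap2 of strand exchange, and Prdm9 and Gm960 of break formation, were also early prophase markers used to name clusters. The naming of the classes thus has a part in their ratios in both steps, and in the counts that hold them. Without scaling, as UMIs per cell, the lists of crossover partners, joint-molecule processing, strand exchange and break formation had 3, 8, 9 and 3 genes at least 2-fold higher in the pachytene-like class than in the early-prophase-like one and 3, 2, 1 and 4 lower, where 56.4% of all genes were higher and 5.15% lower.

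**Figure D5:**
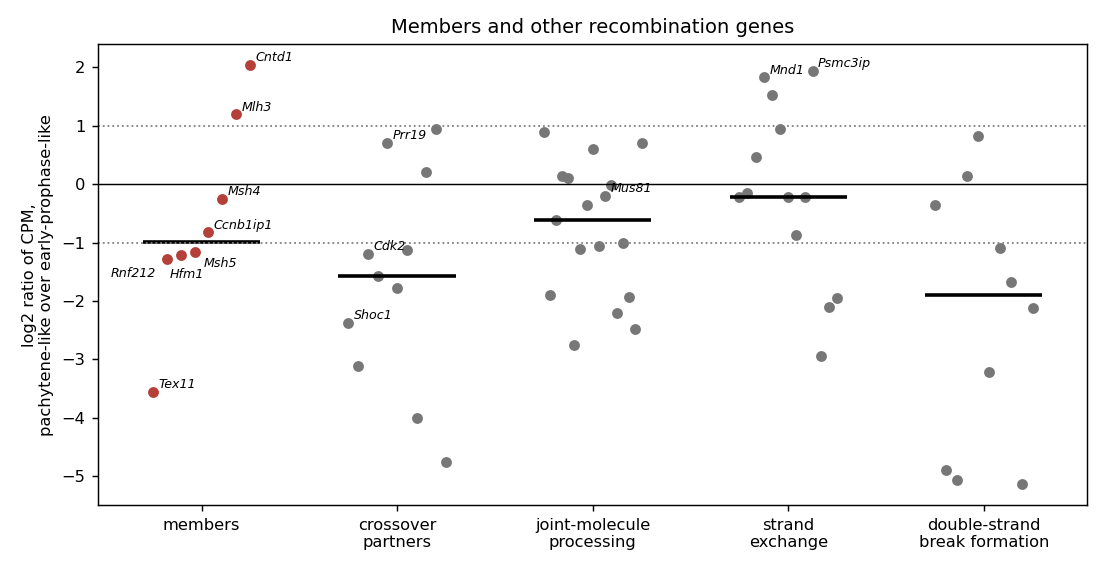
Log2 ratio of CPM, pachytene-like over early-prophase-like cells (y axis), for the 8 genes (red) and 4 lists of other recombination genes (grey); bars are medians and dotted lines mark 2-fold. Cntd1 and Mlh3 lie above the upper dotted line, as do 3 strand exchange genes, and 0 genes of the other 3 lists do.

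Likeness of course over the 20 bins was measured as Pearson's r of log2(CPM + 10), given as a description because the bins share a library, its free RNA and the order. Hfm1 ran with Msh5 at 0.935, with Msh4 at 0.927 and with Rnf212 at 0.855, Msh5 with Rnf212 at 0.807, and Msh4 with Msh5 at 0.806. Tex11 ran against Cntd1 at -0.794 and against Mlh3 at -0.759. Tex11 ran with Ccnb1ip1 at 0.736. Cntd1 ran with Msh4 at 0.713 and with Mlh3 at 0.636, and Mlh3 with Hfm1 at -0.04.

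By the same measure, among 10738 genes with at least 200 UMIs in the germ cells, the 3 genes most like each of the 8 were listed. The 3 nearest to Msh4 were Zfp541 (0.966), Adad1 (0.963) and Slf1 (0.961), and the 3 nearest to Msh5 were Tbc1d10a (0.980), Yipf4 (0.971) and Zhx1 (0.968). Hfm1 was nearest to Adss (0.988), Rnf103 (0.983) and Bod1l (0.969), and Rnf212 to Phc1 (0.938), Cenpm (0.921) and Ankrd31 (0.919), a gene needed for break formation. Tex11 was nearest to Herc1 (0.971), Rps6ka6 (0.968) and Huwe1 (0.965), of which the last 2 are X-linked. Cntd1 was nearest to 4930426I24Rik (0.979), Taf7l2 (0.977) and Yipf5 (0.975), and Mlh3 to Rnf166 (0.935), 4930503L19Rik (0.929) and Eif1 (0.916). Ccnb1ip1 was nearest to Gamt (0.936), Spcs3 (0.865) and Ccdc90b (0.860). All of these nearest genes except Ankrd31, Rps6ka6 and Huwe1 could take part in building the order of cells. None of the 8 genes was among the 3 nearest to another, which among so many candidates does not measure whether they ran together.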

How the data were processed

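Testis cells were profiled with a 10x Chromium droplet kit for 3' ends, version v3.1, per the labels' protocols. The deposited values are UMI counts per gene and barcode, made by the authors with Cell Ranger 7.1.0, STAR and mm10, per the submitters' processing notes. No source used here says whether intronic or antisense reads were counted.

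The 8 genes, the marker and gene lists and the rule for named genes were chosen with earlier results of these data known. Cells needed 500 genes, 1000 UMIs and no more than 10% mitochondrial UMIs (8121 cells), and Scrublet removed 235 (2.89%). Free RNA was not subtracted. With scanpy 1.11.5, 3000 variable genes, 30 principal components, 15 neighbours and Leiden resolution 1 (leidenalg 0.10.2) were used, leaving out 1880 genes (the 8 genes, the lists and genes of the sex chromosomes and mitochondria). A cluster took the name with the best mean marker score if it was at least 1, led by 0.25 and had 3 markers at 2-fold. The scoring was chosen once clusters had been looked at, including the waiver of the lead between consecutive germ stages, which named pachytene-like cluster 1, and the rule that clusters with a median UMI count under that of all cells divided by 3 stay unnamed. Diffusion pseudotime with 10 components ordered the germ cells. It was started from the cell of the first spermatogonium-like cluster farthest from pachytene-like cluster 2.

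UMIs summed over cells were scaled to CPM. Intervals are at 95% and exact: Poisson for levels, conditional binomial for ratios and Clopper-Pearson for shares. Genes needed 20 UMIs over both classes. Each group being 1 library, nothing was tested. The ratio step was tested on simulated data. In each comparison the 8 genes were named. Of the other recombination genes, those at least 2-fold changed between the early-prophase-like and pachytene-like classes were named, and Cdk2, Mus81 and Shoc1 always, as were the 3 genes most like each of the 8 genes. Some genes that the rule took are not reported here. Prr19 fell outside it and was chosen after its values were seen. Of the listed gene symbols 51 of 57 were found, without a search for synonyms, and 32158 of 32285 genes matched GENCODE. Alternatives were other filters, doublets kept, other clustering settings, single clusters in place of classes, equal weight per cell, thinning to 1000 UMIs, other orders and other bin numbers, and, added after seeing the data, UMIs per cell.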

Additional observations from a re-analysis of the deposited data

How the results depend on the processing

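Of 12 alternatives, 10 left the number of the 8 genes at least 2-fold higher in the pachytene-like class than in the early-prophase-like one within 1.5 times its value of 2, and 10 did so for the number lower, 4. With early-prophase-like cluster 3 alone as the reference the counts were 1 higher and 1 lower, and with pachytene-like cluster 1 alone 1 was higher. In UMIs per cell, an alternative chosen after seeing the data, 1 was lower, and Msh5 (1.25), Rnf212 (1.15) and Hfm1 (1.21) reversed direction. Over the 11 others the ratio ranged from 2.15 to 4.53 for Cntd1, 1.49 to 2.95 for Mlh3, 0.0518 to 0.160 for Tex11, 0.376 to 0.882 for Msh5, 0.349 to 0.530 for Rnf212, 0.326 to 0.561 for Hfm1, 0.510 to 0.659 for Ccnb1ip1 and 0.660 to 1.05 for Msh4. The position of the highest bin moved beyond the bins that overlapped it in counting error for Cntd1 after thinning, to 97.5% of the order from 92.5%, and for Msh5 and Tex11, both to 2.5%, when cells were ranked on the first principal component. That order had a Spearman correlation of 0.654 with the one used, against 0.991 with 15 principal components and 0.997 with listed genes included. The causes were not tested.

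Depth limits what can be said of the genes with few UMIs: Rnf212 had 942 UMIs in all germ cells, and Mus81 161. With 1 library, animals cannot be told apart from conditions, cluster names rest on rebuilt clusters, and levels near the somatic-like level cannot be told apart from free RNA. No paired analysis was possible because each group has 1 library and the labels give no replicate numbers.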

Other observations

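A pair of clusters of low depth was left unnamed, and the crossover genes were also found there. In the cluster of 119 cells with a median of 1274 UMIs, Mlh3 was at 88.7 CPM (54.2 to 137; 20 UMIs), Cntd1 at 133 CPM (89.7 to 190), Hfm1 at 182 CPM (130 to 247) and Tex11 at 88.7 CPM (54.2 to 137). Its best marker score was for pachytene (1.46), and Tex11 was there above its 32.3 CPM in pachytene-like cluster 1. In the cluster of 651 cells with a median of 1245 UMIs, the 8 genes were between 10.3 CPM (Rnf212) and 87.3 CPM (Cntd1), and its leading genes included Cst9 and Rhox8. Its best marker score was for Leydig cells (1.82), but 0 markers of that class were at 2-fold, where a name needed 3.

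The 7420 barcodes left out by the filters and the doublet call held UMIs of all 8 genes, from 7.93 CPM for Rnf212 to 53.9 CPM for Tex11. Mlh3 was at 19.2 CPM in these barcodes and 18.5 CPM in somatic-like cells, and the other 7 were further above their somatic-like levels.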
